A study of Homo sapiens with 6 samples.

Results

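The inhibitor of DNA binding genes ID1 to ID4, the E protein genes TCF3 and TCF12 and the SMAD genes SMAD1, SMAD5, SMAD6 and SMAD7 were followed in 6 RNA-seq libraries. These 10 genes, of 58735 in the deposited annotation, were found by gene name, and the counts of all transcripts of each gene were summed. ID3 was selected on its CPM difference between the groups in these same libraries, so that difference is given as a description without a test. The other 9 genes were taken as its relatives, partners and upstream signal carriers, also with earlier results of these data known. The study compared 3 siANXA1 libraries, from cells given a lentivirus that silences ANXA1 (labelled as ANXA1 down-regulated), with 3 siControl libraries, from cells given an empty vector (genotype labelled WT). All 6 were titled as B-ALL cells, that is, B cell acute lymphoblastic leukaemia. They were labelled as CCRF-SB, a lymphoblast-like line from peripheral blood, at day 5. The protocol describes stable lines selected with puromycin. Whether a group was a pool or a clone, and whether replicates were separate cultures, is not given in the sources used here, so the p-values reflect library-to-library spread alone, possibly technical.

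ID proteins are short helix-loop-helix proteins without the basic region that contacts DNA. They pair with E proteins, the basic helix-loop-helix products of TCF3 (E12 and E47), TCF12 (HEB) and TCF4 (E2-2), and so keep them from binding E-box sequences alone or together with tissue partners such as TAL1. In blood cells E proteins drive B and T lymphocyte programmes and take part in the erythroid TAL1 complex. Bone morphogenetic proteins (BMPs) signal through type I and type II receptor kinases to SMAD1, SMAD5 and SMAD9, which enter the nucleus with SMAD4 and induce ID genes, whereas SMAD6 and SMAD7 are inhibitory SMADs that the pathway itself induces.

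ANXA1 read 1606, 1723 and 1712 CPM (counts scaled to library size) in siANXA1 replicates 1 to 3, against 3696, 3696 and 3756 CPM in siControl replicates 1 to 3, with an edgeR adjusted p of 0.0571 and a DESeq2 adjusted p of 1.41e-17. The shallowest library, siANXA1 replicate 2, held 21333951 counts in genes and the deepest, siANXA1 replicate 1, held 44148505, and the common biological coefficient of variation was 0.423. Principal component 1 (39.9% of the variance) crossed the groups, with siANXA1 replicate 2 beside siControl replicates 1 and 2, and siANXA1 replicates 1 and 3 beside siControl replicate 3. DDIT4, an inhibitor of mTOR signalling induced by stress, followed this division, at 109.8, 1435 and 109 CPM in siANXA1 replicates and 2282, 2171 and 189 CPM in siControl replicates. The B cell markers went against the B-ALL titles. Of 10, 8 stayed under 1 CPM in every library, VPREB1 and IGLL1 among them with no count at all, and the summed level of the 10 was 2.62 to 4.52 CPM in siANXA1 and 2.61 to 5.62 CPM in siControl. The 12 erythroid markers, led by the globin gene HBE1, the transferrin receptor gene TFRC and the globin gene HBG2, summed to 5786 to 7108 CPM in siANXA1 and 2041 to 3481 CPM in siControl, without overlap. HBE1 made up most of that gap, at 2799 ± 592 CPM in siANXA1 and 217 ± 363 CPM in siControl, whereas TFRC averaged 1345 ± 407 CPM in siANXA1 and 1596 ± 452 CPM in siControl. Without HBE1 the sums were 3256 to 3822 CPM in siANXA1 and 2036 to 3201 CPM in siControl. Singly, 4 of the 12 were higher in siANXA1 without overlap, against 7.41% of all genes tested, and the other 8 overlapped. The 5 monocyte markers summed to 84.7 to 99.2 CPM in siANXA1 and 72.4 to 99.4 CPM in siControl, with FCN1 at 0. Sums of the 5 T cell markers were 14.7 to 23.3 CPM in siANXA1 and 10.8 to 37.7 CPM in siControl, with CD2 at 0. Sums of the 5 megakaryocyte markers were 11.7 to 23.0 CPM in siANXA1 and 12.7 to 24.0 CPM in siControl, and the 4 fibroblast markers summed to 0.621 to 4.16 CPM in siANXA1 and 0.449 to 3.06 CPM in siControl. The 4 epithelial markers, led by KRT8, KRT18 and EPCAM, summed to 475 to 610.3 CPM in siANXA1 and 469.8 to 507 CPM in siControl. The part of the erythroid difference, or of the division along principal component 1, in the results below was not tested.

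ID1 was the most abundant ID gene, ID3 came next, ID2 was low and ID4 was not detected. To show what the 4 relatives share at their starts, the 250 bases before each RefSeq start (GRCh38.p14) are given 5′ to 3′ on the gene's own strand. Capitals mark any match, on either strand, to 6 motifs: the GC-rich SMAD motif GGCGCC, the short SMAD motif GTCTG, the EGR motif GCGNGGGCG, the E-box CANNTG, the CCAAT box CCAAT and the TATA box TATAAA. The ID1 window is chr20:31605039-31605288 (plus strand), the ID2 window chr2:8681806-8682055 (plus strand), the ID3 window chr1:23559502-23559751 (minus strand) and the ID4 window chr6:19837120-19837369 (plus strand).
ID1: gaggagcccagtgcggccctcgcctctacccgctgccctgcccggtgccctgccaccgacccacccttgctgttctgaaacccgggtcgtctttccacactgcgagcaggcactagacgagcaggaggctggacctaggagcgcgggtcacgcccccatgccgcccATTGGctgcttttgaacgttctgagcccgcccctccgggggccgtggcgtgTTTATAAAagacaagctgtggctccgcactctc
ID2: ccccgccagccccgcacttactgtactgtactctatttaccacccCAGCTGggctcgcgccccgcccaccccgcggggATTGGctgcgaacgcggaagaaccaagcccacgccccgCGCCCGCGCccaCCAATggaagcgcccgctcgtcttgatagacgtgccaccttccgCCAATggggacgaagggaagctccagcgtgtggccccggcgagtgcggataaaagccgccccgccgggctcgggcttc
ID3: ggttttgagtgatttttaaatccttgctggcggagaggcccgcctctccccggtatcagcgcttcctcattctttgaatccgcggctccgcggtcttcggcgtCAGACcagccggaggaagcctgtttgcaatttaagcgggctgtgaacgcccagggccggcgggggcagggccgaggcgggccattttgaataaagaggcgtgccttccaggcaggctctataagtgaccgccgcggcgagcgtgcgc
ID4: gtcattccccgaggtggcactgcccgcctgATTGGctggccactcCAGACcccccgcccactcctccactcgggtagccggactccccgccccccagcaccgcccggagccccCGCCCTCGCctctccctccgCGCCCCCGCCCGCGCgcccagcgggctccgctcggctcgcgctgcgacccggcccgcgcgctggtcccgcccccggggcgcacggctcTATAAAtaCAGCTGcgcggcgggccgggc

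The ID1 window held the CCAAT box and a TATA box that matched on both strands with shared letters, 33 and 31 bases before the start. The ID3 window held 1 match, the short SMAD motif, starting 147 bases before the start. The ID2 window held 3 CCAAT boxes, 1 E-box and 1 EGR match, and the ID4 window held 3 EGR matches, 2 of them sharing letters, with an E-box, a short SMAD motif, a CCAAT box and a TATA box. Of 34788 promoter windows of the same length, 16.4% held GGCGCC, 38.0% GTCTG, 8.41% GCGNGGGCG, 61.8% CANNTG, 32.0% CCAAT and 10.8% TATAAA. ID1 and ID3, the pair that read lower in siANXA1, shared no motif type in these windows, and neither held an E-box, an EGR match or GGCGCC. Such matches are descriptions of letters and not of bound sites, and sequence outside the windows of 250 bases was not searched. For ID3 the annotation of the counts, GENCODE release 29, puts the start of the coding transcript 293 bases upstream of the RefSeq start, so that the window shown lies within that transcript's first exon. The start of the most abundant ID1 transcript lay 6 bases from the RefSeq start. For ID2 that distance was 3211 bases, although another annotated ID2 transcript starts at the RefSeq start itself.

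ID3 (ENSG00000117318, chromosome 1 from 23557918 to 23559794, minus strand) read 15.1, 13.02 and 16.3 CPM in siANXA1 replicates 1 to 3, against 58.4, 50.1 and 48.8 CPM in siControl replicates 1 to 3. All siANXA1 libraries were low and all siControl libraries high, with a wide gap between them. The means were 14.8 ± 1.67 CPM in siANXA1 and 52.4 ± 5.24 CPM in siControl (SD, n = 3 each), so that 28.2% of the siControl level was left, a log2 fold change of -1.82. In bulk RNA, fewer cells that express a gene and less RNA per cell cannot be told apart. The coding transcript ENST00000374561 held between 90.1% and 92.5% of the ID3 counts in siANXA1 and between 94.1% and 96.9% in siControl. It stood at 13.5 ± 1.42 CPM in siANXA1 and 50.1 ± 5.25 CPM in siControl. The non-coding transcript ENST00000486541 stood at 0.967 ± 0.228 CPM in siANXA1 and 1.83 ± 0.687 CPM in siControl, with overlapping libraries, so nearly all of the gap lay in the coding transcript. No other annotated gene overlaps ID3.

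ID1 (ENSG00000125968, chromosome 20 from 31605283 to 31606515, plus strand) was also lower in every siANXA1 library. It read 61.8, 60.3 and 70.7 CPM in siANXA1 replicates 1 to 3, against 102, 94.4 and 169.5 CPM in siControl replicates 1 to 3. The siANXA1 libraries lay close together, whereas siControl replicate 3 stood far above the other siControl libraries. The means were 64.3 ± 5.64 CPM in siANXA1 and 122 ± 41.3 CPM in siControl (SD, n = 3 each), 52.7% of the siControl level. The log2 fold change of -0.92 ± 0.26 (SE) did not pass edgeR's quasi-likelihood test over all genes (adjusted p = 0.605, unadjusted p = 0.00989) or DESeq2 (adjusted p = 0.106). Without siControl replicate 3 it was -0.62 ± 0.14 (edgeR adjusted p = 0.169). ID1 has 2 coding transcripts that share both ends, and the shorter, ENST00000376112, held between 84.3% and 91.5% of its counts in siANXA1 and between 86.5% and 95.2% in siControl. That transcript stood at 56.5 ± 2.68 CPM in siANXA1 and 110.4 ± 31.8 CPM in siControl, and the longer ENST00000376105 at 7.76 ± 3.08 CPM in siANXA1 and 11.6 ± 9.78 CPM in siControl.

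ID2 (ENSG00000115738, chromosome 2 from 8678845 to 8684453, plus strand) was far less abundant and its groups overlapped. It read 3.70, 4.43 and 5.90 CPM in siANXA1 replicates 1 to 3, against 4.88, 11.2 and 4.01 CPM in siControl replicates 1 to 3. Only siControl replicate 2 stood apart from the rest, and the difference of -0.52 ± 0.45 on the log2 scale (edgeR adjusted p = 0.769) became 0.06 without that library. ID2 has an antisense gene, ID2-AS1, at no more than 0.992 CPM, and the strand setting of the counting is not given in the sources used here, so reads of the pair cannot be told apart. ID4 (ENSG00000172201, chromosome 6 from 19837386 to 19840684, plus strand) had 0 counts in all 6 libraries. With 3 counts as the limit that a count of 0 allows, its level was at most 0.0680 CPM in siANXA1 replicate 1, the deepest library, and 0.141 CPM in siANXA1 replicate 2, the shallowest, a limit for counting error alone.

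**Figure D1:**
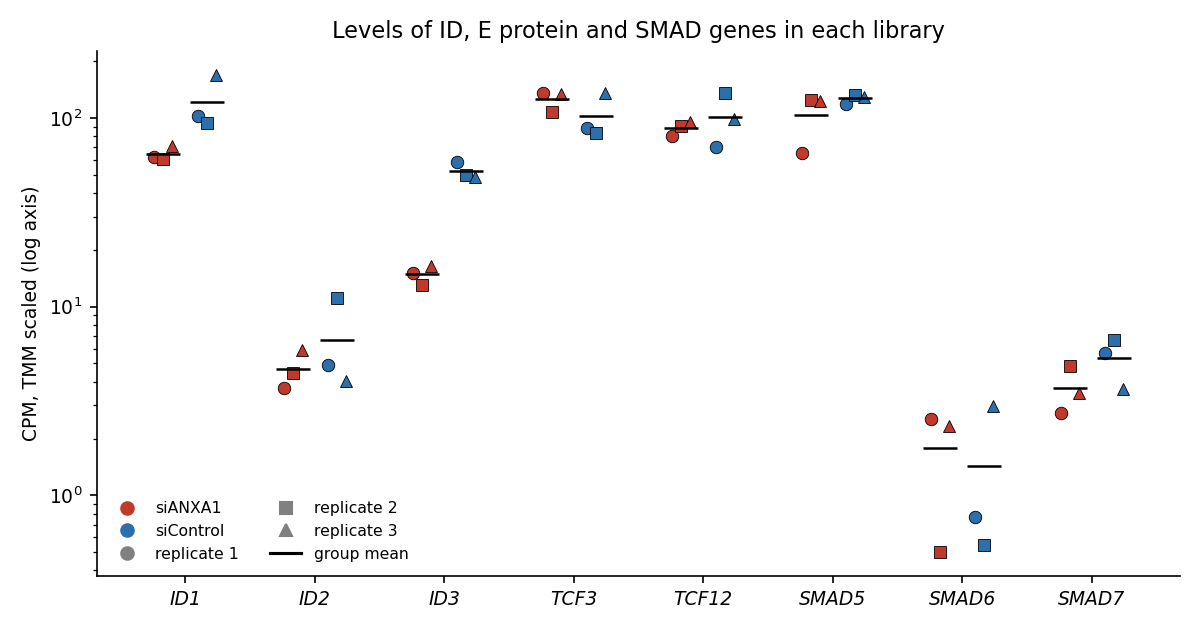
CPM of the 8 tested genes on a log axis, with siANXA1 (red) left of siControl (blue), a symbol per replicate and a bar at each group mean. The siANXA1 and siControl libraries do not overlap for ID1 (at most 70.7 CPM in siANXA1, at least 94.4 CPM in siControl) and ID3 (at most 16.3 CPM in siANXA1, at least 48.8 CPM in siControl), and they overlap for the other 6 genes.

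The E protein genes were abundant in both groups and did not stand apart. TCF3 (ENSG00000071564, chromosome 19 from 1609290 to 1652605, minus strand) read 136, 108 and 134 CPM in siANXA1 replicates 1 to 3, against 88.9, 83.2 and 136 CPM in siControl replicates 1 to 3. siControl replicate 3 lay level with the highest siANXA1 libraries, and the log2 fold change was 0.29 ± 0.23 (edgeR adjusted p = 0.748). TCF3 thus followed the division along principal component 1, lower in siANXA1 replicate 2 and siControl replicates 1 and 2. TCF12 (ENSG00000140262, chromosome 15 from 56918623 to 57299281, plus strand) read 79.8, 90.7 and 95.5 CPM in siANXA1 replicates 1 to 3, against 70.0, 136 and 99.0 CPM in siControl replicates 1 to 3. Its siControl libraries spread on both sides of the siANXA1 libraries (log2 fold change -0.20 ± 0.26, edgeR adjusted p = 0.825). The counts of TCF3 were spread over 20 transcripts, of which the most abundant, ENST00000588136, averaged 17.5% of the gene in siANXA1 and 21.4% in siControl. In TCF12 the estimates moved between transcripts that start far apart. ENST00000343827, which starts at 57219466, held 1.90%, 72.3% and 73.3% of the gene in siANXA1 replicates 1 to 3 and 24.3%, 76.9% and 74.3% in siControl replicates 1 to 3. ENST00000557843, which starts at 56918832, held 74.5% in siANXA1 replicate 1, 14.0% in siControl replicate 1 and 0 in the other 4 libraries. The transcript that took most of the TCF12 counts therefore differed between libraries of the same group, while the gene total stayed within a range of 1.95-fold. The third E protein gene, TCF4, read 46.9, 51.9 and 51.1 CPM in siANXA1 replicates and 45.1, 48.3 and 43.1 CPM in siControl replicates (edgeR adjusted p = 0.800).

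Per length, as TPM (counts divided by the deposited transcript length and scaled to a fixed total per library), the order of the genes differed between the groups in the place of ID3. In siANXA1 the order was ID1 (113 ± 9.78 TPM), TCF3 (86.8 ± 6.35), TCF12 (42.3 ± 4.19), SMAD5 (36.8 ± 12.4), ID3 (22.1 ± 2.45), ID2 (6.27 ± 1.86), SMAD7 (2.38 ± 1.30), SMAD6 (0.868 ± 0.200) and SMAD1 (0.492 ± 0.649). In siControl the order was ID1 (214 ± 71.0 TPM), ID3 (75.9 ± 7.35), TCF3 (67.8 ± 17.3), TCF12 (50.7 ± 12.6), SMAD5 (40.8 ± 7.94), ID2 (8.68 ± 3.57), SMAD7 (2.87 ± 0.196), SMAD6 (0.915 ± 0.949) and SMAD1 (0.229 ± 0.212). Libraries of the neighbours TCF12 and SMAD5, SMAD5 and ID3, and SMAD6 and SMAD1 overlapped in siANXA1. In siControl those of ID3 and TCF3, TCF3 and TCF12, TCF12 and SMAD5, and SMAD6 and SMAD1 overlapped, so these neighbours have no firm order.

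The 4 ID genes together held 131, 136 and 155 TPM in siANXA1 replicates 1 to 3, against 271, 251 and 373 TPM in siControl replicates 1 to 3. Every siANXA1 library was below every siControl library, with ID1 giving between 79.6% and 80.3% of the sum in siANXA1 and between 66.1% and 79.1% in siControl. The 3 E protein genes together held 144, 139.9 and 149.6 TPM in siANXA1 replicates and 113, 137 and 149.7 TPM in siControl replicates, with overlap. The ratio of ID to E protein transcripts was therefore 0.909, 0.975 and 1.04 in siANXA1 replicates 1 to 3, near parity, against 2.40, 1.83 and 2.49 in siControl replicates 1 to 3, and it does not depend on how libraries are scaled. Left without ID3, which was picked for its low level, the ratio was 0.758, 0.833 and 0.874 in siANXA1 replicates and 1.65, 1.30 and 2.02 in siControl replicates, still without overlap. Without ID3 the ID sum was nearly all ID1, as with 105 of 109 TPM in siANXA1 replicate 1 and 180 of 186 TPM in siControl replicate 1. That gap is therefore largely the ID1 difference again, which did not pass edgeR or DESeq2. Both ratios are descriptions of RNA levels and say nothing of protein.

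**Figure D2:**
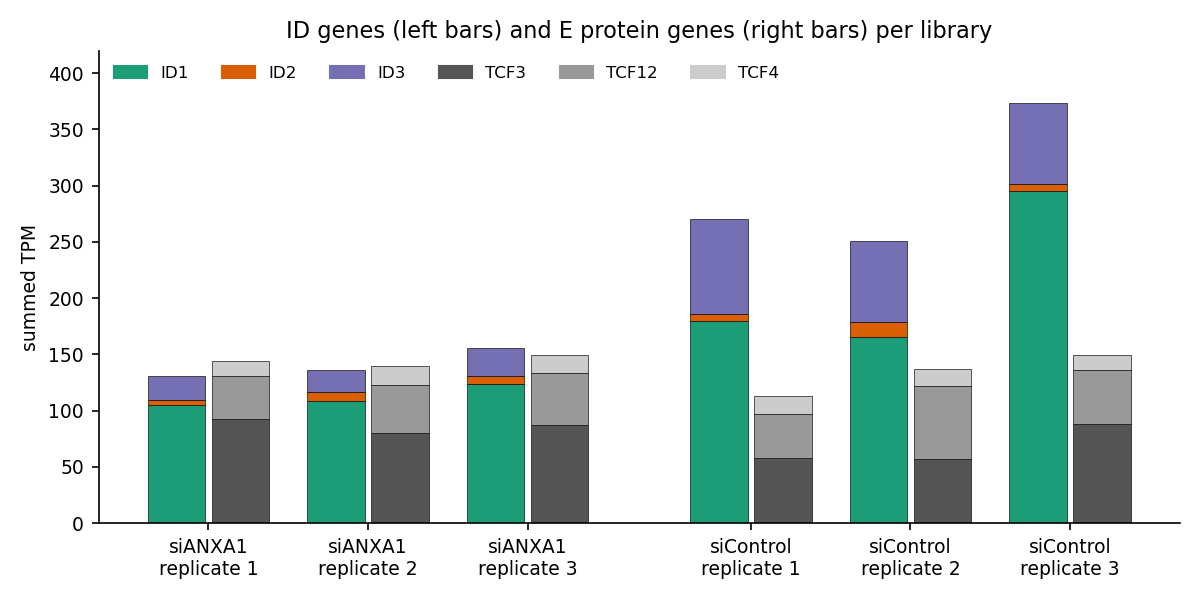
Summed TPM per library, with the 3 siANXA1 libraries left of the 3 siControl libraries, ID genes in each left bar and E protein genes in each right bar. The ID and E protein bars have nearly the same height in siANXA1 (ratio 0.974 ± 0.0649), and the ID bars are the taller ones in siControl (ratio 2.24 ± 0.361, SD, n = 3 each). These ratios include ID3, which was picked for its fall. Without ID3 the ratio is 0.822 ± 0.0588 in siANXA1 and 1.66 ± 0.357 in siControl, with an ID sum that is nearly all ID1.

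Of the SMADs that carry BMP signals, SMAD5 (ENSG00000113658, chromosome 5 from 136132845 to 136188747, plus strand) was abundant and SMAD1 nearly absent. SMAD5 read 65.3, 124 and 123 CPM in siANXA1 replicates 1 to 3, against 118, 132 and 129.6 CPM in siControl replicates 1 to 3. siANXA1 replicate 1 stood alone at the low end and the other 5 libraries lay together (log2 fold change -0.29 ± 0.26, edgeR adjusted p = 0.779). Without siANXA1 replicate 1 it was -0.04 ± 0.17. With the most abundant SMAD5 transcript in place of the gene sum the difference had the opposite sign (0.18 ± 0.71). Its counts lay mostly in either of 2 transcripts of nearly equal span. ENST00000545279 held 15.3% of the gene in siControl replicate 1 and between 82.2% and 95% in the other 5 libraries, and ENST00000545620 held 84.0% there. SMAD1 (ENSG00000170365, chromosome 4 from 145481194 to 145558079, plus strand) had 6, 10 and 7 counts in siANXA1 replicates 1 to 3 and 11, 7 and 0 counts in siControl replicates 1 to 3, too few for the test. SMAD9, the remaining BMP-responsive SMAD, was at 0.337 ± 0.227 CPM in siANXA1 and 0.688 ± 0.266 CPM in siControl.

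Both inhibitory SMADs were low. SMAD7 (ENSG00000101665, chromosome 18 from 48919853 to 48952052, minus strand), which blocks BMP and TGF-beta receptors alike, read 2.74, 4.84 and 3.49 CPM in siANXA1 replicates 1 to 3, against 5.67, 6.67 and 3.65 CPM in siControl replicates 1 to 3. The groups overlapped through siControl replicate 3 (log2 fold change -0.53 ± 0.35, edgeR adjusted p = 0.701). SMAD7 followed the division along principal component 1, higher in siANXA1 replicate 2 and siControl replicates 1 and 2. SMAD6 (ENSG00000137834, chromosome 15 from 66702228 to 66782848, plus strand), which acts mainly on BMP signals, read 2.55, 0.502 and 2.32 CPM in siANXA1 replicates 1 to 3, against 0.766, 0.546 and 2.96 CPM in siControl replicates 1 to 3. SMAD6 also followed the division of the libraries that crosses the groups and not the groups themselves, low where DDIT4 was high. Its log2 fold change was 0.35 ± 0.83 (edgeR adjusted p = 0.907) and had the opposite sign, -0.32 ± 0.26, with the side on the first principal component as a covariate (edgeR adjusted p = 0.608). The transcript ENST00000612349, annotated as a processed transcript, held between 63.6% and 78.4% of the SMAD6 counts in siANXA1 and between 63.6% and 84.8% in siControl.

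Of the 10 genes, 8 had enough counts to be tested. Among the 7 tested genes other than ID3, 0 passed edgeR at an adjusted p under 0.05 (0.0111% of 17947 genes did, 2 genes) and 0 passed DESeq2 (1.67% of 15449 genes did), and 1, ID1, had an unadjusted edgeR p under 0.05 (7.93% of all genes did). Of these 7, only ID1 was lower in siANXA1 with no overlap between the groups, against 7.24% of all genes, and 0 were higher without overlap. Their fold changes were negative in 5 of 7, with a median of -0.29 on the log2 scale, beside a median of 0.01 over all genes tested.

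**Figure D3:**
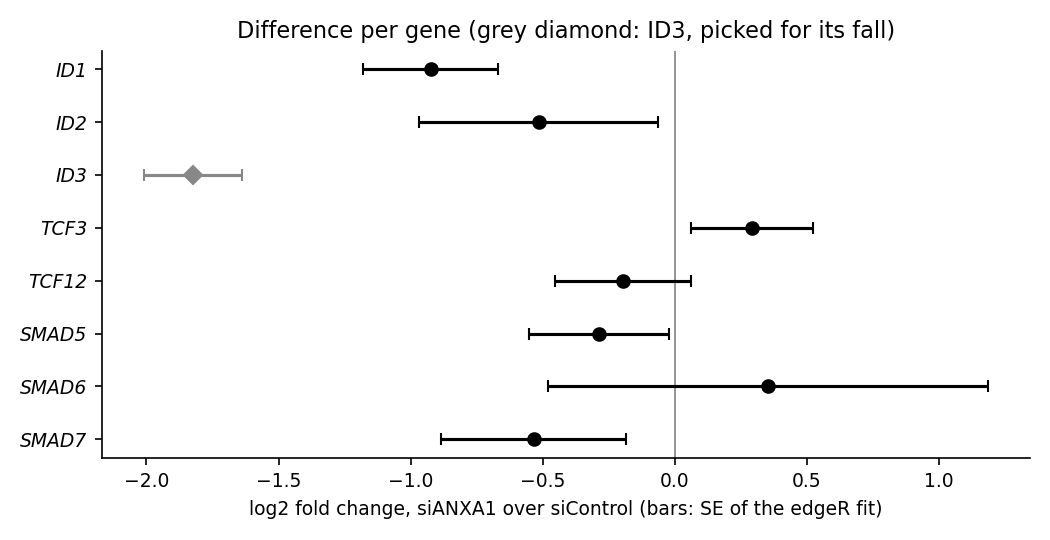
Log2 fold change of siANXA1 over siControl for the 8 tested genes, with the SE derived from the edgeR F statistic as bars and ID3 as a grey diamond. ID3 was picked for its fall, so its point and bar are descriptions and not a test. ID3 (-1.82) and ID1 (-0.92 ± 0.26) lie farthest from 0, and SMAD6 (0.35 ± 0.83) has the widest bar.

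The protein coding genes with the level pattern nearest to ID3 over the 6 libraries were SCRN3, ZNF467 and CARD9, among 9849 genes with a mean of 5 CPM or more. Likeness was the root mean square distance between centred log2(CPM + 0.5) values, which was 0.241 for SCRN3, 0.275 for ZNF467 and 0.305 for CARD9. SCRN3 read 9.96, 11.7 and 9.36 CPM in siANXA1 replicates 1 to 3, against 35.3, 41.5 and 29.6 CPM in siControl replicates 1 to 3. CARD9, an adaptor of innate immune receptors, stood at 8.82 ± 2.43 CPM in siANXA1 and 21.6 ± 1.24 CPM in siControl, and the zinc finger gene ZNF467 at 2.68 ± 1.21 CPM in siANXA1 and 9.0 ± 1.37 CPM in siControl. All 3 were low in each siANXA1 library and high in each siControl library, as the choice by likeness to ID3 requires. ID1 ranked 94 by the same measure (distance 0.558), and the next of its family, ID2, ranked 2385.

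The rest of the pathway was read from 12 lists with 160 genes, of which 92 had enough counts to be tested and 28 had no count in any library. These lists were chosen with earlier results of the same data known. The shares below are therefore descriptions and not independent support for a change of the pathway. Over all lists 0 of 92 passed edgeR (0.0111% of all genes did). DESeq2 gave an adjusted p for 82 of the 92, and 2 of these passed (2.44%, against 1.67% of all genes), both lower in siANXA1. An unadjusted edgeR p under 0.05 was found for 19 of 92 (20.7%, against 7.93% of all genes). The groups did not overlap for 11 genes that were lower in siANXA1 (12.0%, against 7.24% of all genes) and 2 that were higher (2.17%, against 7.41%). The median log2 fold change was -0.23, with 66 of 92 negative, beside 49.5% negative over all genes and a median of -0.07 over all tested genes that averaged under 5 CPM.

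Receptors and co-receptors had 15 of 15 tested genes negative, with a median log2 fold change of -0.68. They ranged from -1.73 for ACVRL1 to -0.0016 for ACVR2A. Under alternative settings with all 15 genes the median lay between -0.77 and -0.35, and the strict filter, which left 9 genes, gave -0.33. With the side on principal component 1 as a covariate 12 of 15 were negative and the median was -0.48. BMPR1A, a type I BMP receptor and 1 of the 2 genes past DESeq2, read 16.5, 16.0 and 16.1 CPM in siANXA1 replicates 1 to 3, against 32.2, 31.8 and 30.7 CPM in siControl replicates 1 to 3. Its libraries were tight within each group, and the groups did not overlap. The log2 fold change of -0.96 ± 0.16 passed DESeq2 (adjusted p = 2.17e-09) and not edgeR (adjusted p = 0.478). ACVR1, another type I BMP receptor and also picked out because of its values, read 20.8, 20.1 and 18.2 CPM in siANXA1 replicates and 41.5, 44.4 and 19.7 CPM in siControl replicates, where siControl replicate 3 stood with siANXA1 (edgeR adjusted p = 0.627). The type II receptor gene BMPR2, chosen as the partner of these receptors once the values were known, stood at 19.4 ± 3.07 CPM in siANXA1 and 20.3 ± 2.36 CPM in siControl. The most abundant of the list were TGFBR3, a co-receptor also called betaglycan, at 102 ± 12.9 CPM in siANXA1 and 115 ± 10.2 CPM in siControl, and the activin receptor gene ACVR2B at 58.5 ± 21.2 CPM in siANXA1 and 71.5 ± 21.6 CPM in siControl. ACVR2B followed the division that crosses the groups. It read 44.9, 82.8 and 47.6 CPM in siANXA1 replicates and 81.8, 85.9 and 46.7 CPM in siControl replicates. TGFBR3 divided the same way. TGFBR1, the type I TGF-beta receptor, stood at 35.9 ± 6.80 CPM in siANXA1 and 72.0 ± 29.7 CPM in siControl.

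BMP ligand genes were nearly silent, with 2 of 14 tested and BMP8B the highest at 2.59 ± 0.698 CPM in siANXA1 and 2.81 ± 0.476 CPM in siControl. GDF7 stood at 0.356 ± 0.311 CPM in siANXA1 and 0.564 ± 0.194 CPM in siControl, and BMP10, not tested, at 0.290 ± 0.324 CPM in siANXA1 and 0.206 ± 0.150 CPM in siControl. Of the TGF-beta and activin ligands, 5 of 12 were tested, 4 of them negative, with a median of -0.20. TGFB1 was the most abundant, at 178 ± 1.70 CPM in siANXA1 and 185 ± 10.2 CPM in siControl, followed by GDF11 at 49.6 ± 15.3 CPM in siANXA1 and 41.6 ± 17.4 CPM in siControl. INHBE, an inhibin subunit gene, read 1.22, 18.2 and 1.39 CPM in siANXA1 replicates and 47.1, 49.4 and 2.07 CPM in siControl replicates, the division that crosses the groups. GDF11 followed that division in the opposite direction. Of the extracellular inhibitors, 7 of 13 were tested, 5 of them negative, with a median of -0.22. TWSG1, which binds BMPs outside the cell, stood at 96.9 ± 15.8 CPM in siANXA1 and 113 ± 8.88 CPM in siControl, SOSTDC1 at 43.5 ± 11.9 CPM in siANXA1 and 88.6 ± 41.6 CPM in siControl, and NBL1 at 7.09 ± 0.605 CPM in siANXA1 and 8.12 ± 0.561 CPM in siControl. TWSG1 and SOSTDC1 divided as INHBE did, higher in siANXA1 replicate 2 and siControl replicates 1 and 2.

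The other SMADs, cofactors and brakes were balanced in sign, with 10 of 20 tested genes positive and a median of -0.02. The largest log2 fold changes were -1.82 ± 0.64 for SMAD2 and 1.54 ± 0.62 for TGIF2. Both had overlapping groups (edgeR adjusted p = 0.625 for SMAD2 and 0.627 for TGIF2). The most abundant were the deubiquitinase gene USP15 at 307 ± 42.5 CPM in siANXA1 and 299 ± 54.2 CPM in siControl, FKBP1A, whose product holds type I receptors inactive, at 159 ± 21.8 CPM in siANXA1 and 144 ± 105 CPM in siControl, and the coactivator gene EP300 at 116 ± 19.6 CPM in siANXA1 and 114 ± 10.4 CPM in siControl. BAMBI, a decoy receptor that dampens BMP and TGF-beta signals and is picked out here because of its values, read 7.57, 13.8 and 9.31 CPM in siANXA1 replicates 1 to 3, against 5.98, 5.21 and 5.51 CPM in siControl replicates 1 to 3. Each siANXA1 library was above each siControl library, but the log2 fold change of 0.87 ± 0.29 did not pass edgeR (adjusted p = 0.607). Other BMP target genes, of which 3 of 7 were tested, were all negative with a median of -0.80. That median is the MSX1 value, and HEY1 was only at -0.02. With the side on principal component 1 as a covariate, or with the replicate block, 2 of 3 were negative (medians -0.77 and -0.82). HEY1 stood at 19.5 ± 8.47 CPM in siANXA1 and 19.7 ± 8.02 CPM in siControl, RUNX2 at 2.61 ± 0.303 CPM in siANXA1 and 15.6 ± 17.3 CPM in siControl, and MSX1 at 1.55 ± 0.318 CPM in siANXA1 and 2.71 ± 0.289 CPM in siControl, none past edgeR (adjusted p from 0.612 to 0.991). HEY1 followed the division along principal component 1 that crosses the groups. TGF-beta target genes were negative in 8 of 8 tested, with a median of -0.48. With the side on principal component 1 as a covariate 4 of 8 were negative and the median was -0.02, and without siControl replicate 1 5 of 8 were negative with a median of -0.19. FN1, encoding fibronectin, stood at 155 ± 62.7 CPM in siANXA1 and 224 ± 119.6 CPM in siControl, the AP-1 gene JUNB at 60.2 ± 4.63 CPM in siANXA1 and 80.2 ± 7.87 CPM in siControl, and CDKN1A, encoding the cell cycle inhibitor p21, at 32.2 ± 19.9 CPM in siANXA1 and 56.6 ± 32.1 CPM in siControl. FN1 and CDKN1A followed the division that crosses the groups, higher in siANXA1 replicate 2 and siControl replicates 1 and 2.

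**Figure D4:**
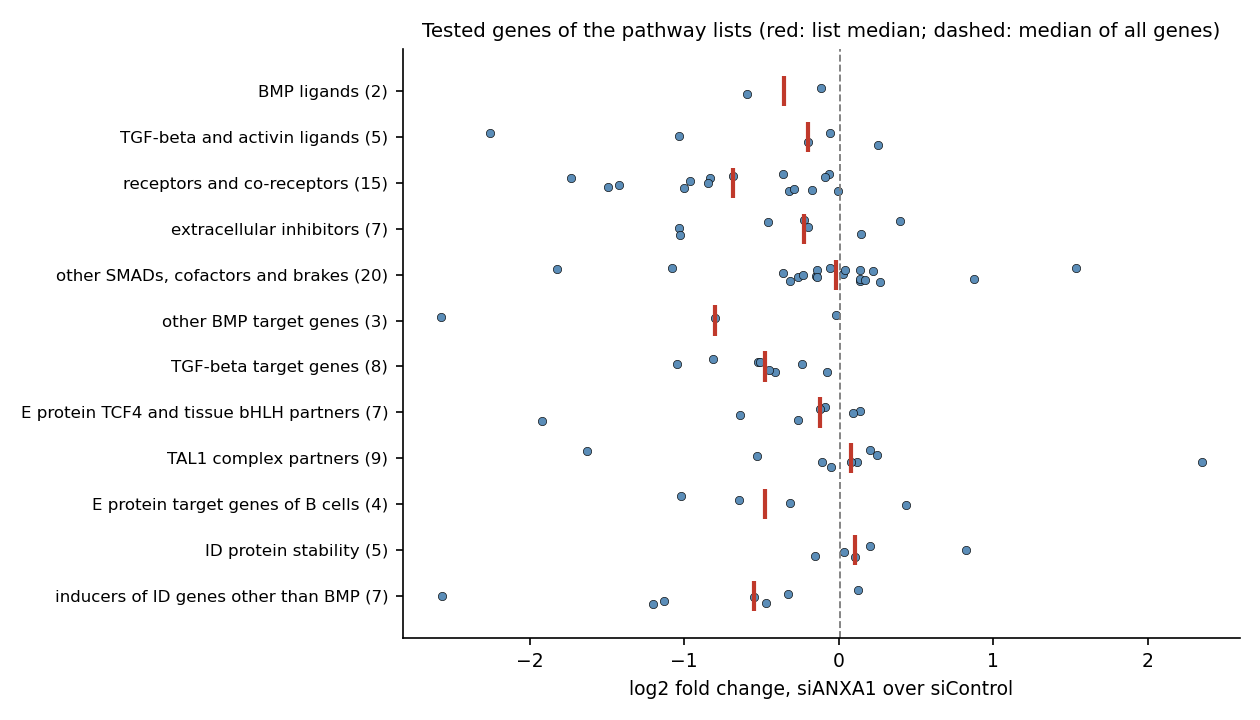
Log2 fold change of siANXA1 over siControl for each tested gene of the 12 pathway lists (number tested in brackets), with the list median in red and the median of all genes as a dashed line. All 15 receptor points lie left of 0, whereas the 20 SMADs, cofactors and brakes are split evenly around it.

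The list of TCF4 and the tissue helix-loop-helix partners of E proteins had 7 of 27 genes tested, 5 of them negative and a median of -0.12. LYL1 stood at 111 ± 15.5 CPM in siANXA1 and 118 ± 14.4 CPM in siControl. TAL1, the E protein partner of erythroid cells, read 55.2, 32.4 and 13.5 CPM in siANXA1 replicates and 14.7, 70.1 and 9.82 CPM in siControl replicates, too scattered for an order. Of the genes that work in the TAL1 complex all 9 were tested, 5 positive and 4 negative, with GATA2 at 194 ± 19.5 CPM in siANXA1 and 201 ± 7.65 CPM in siControl, GATA1 at 172 ± 11.1 CPM in siANXA1 and 159 ± 39.3 CPM in siControl and SSBP3 at 128 ± 7.55 CPM in siANXA1 and 121 ± 4.98 CPM in siControl. E protein target genes of B cells were low throughout. Of 15, 4 were tested, 3 of them negative, and the highest were RAG1 at 5.56 ± 1.11 CPM in siANXA1 and 8.68 ± 1.83 CPM in siControl and FOXO1 at 4.19 ± 0.856 CPM in siANXA1 and 3.09 ± 0.463 CPM in siControl.

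Genes for the stability of ID proteins did not stand apart, with 4 of 5 positive and a median of 0.11. The deubiquitinase gene USP1, whose product protects ID proteins from degradation, stood at 212 ± 21.7 CPM in siANXA1 and 236 ± 41.2 CPM in siControl, CDC20 at 220.4 ± 19.3 CPM in siANXA1 and 215 ± 50.1 CPM in siControl, and CDC27 at 127 ± 78.1 CPM in siANXA1 and 71.7 ± 62.9 CPM in siControl. Inducers of ID genes other than BMPs had 6 of 7 negative and a median of -0.55. EGR1, which induces Id3 in mouse lymphocytes and is picked out because of its values, read 99.2, 241 and 94.9 CPM in siANXA1 replicates 1 to 3, against 408, 386 and 208 CPM in siControl replicates 1 to 3. siANXA1 replicate 2 lay above siControl replicate 3, so the groups overlapped (log2 fold change -1.20 ± 0.45, edgeR adjusted p = 0.627). EGR1 thus followed the division along principal component 1, higher in siANXA1 replicate 2 and siControl replicates 1 and 2. STAT3 read 244, 286 and 241 CPM in siANXA1 replicates and 414, 408 and 307 CPM in siControl replicates, without overlap (log2 fold change -0.55 ± 0.17, edgeR adjusted p = 0.605). The STAT5 genes were the most abundant, STAT5A at 352 ± 43.3 CPM in siANXA1 and 443 ± 123 CPM in siControl and STAT5B at 292 ± 70.8 CPM in siANXA1 and 404 ± 105 CPM in siControl. MYC, the other gene past DESeq2 (adjusted p = 0.025), read 9.78, 12.97 and 10.6 CPM in siANXA1 replicates and 90.4, 96.5 and 11.1 CPM in siControl replicates, with siControl replicate 3 inside the siANXA1 range (edgeR adjusted p = 0.605). MYC was higher in siANXA1 replicate 2 and siControl replicates 1 and 2, the division along principal component 1. With that side as a covariate its log2 fold change went from -2.57 to -1.49 (edgeR adjusted p = 0.445).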

How the data were processed

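Per the labels' protocols, total RNA of the 6 samples was extracted with Trizol and prepared with Illumina TruSeq reagents. The authors deposited estimated counts per transcript as whole numbers, not normalized, and the transcript length in bases; that they are estimates and not tallies was judged from the values. How reads were aligned and counted, and on which strand, is not given in the sources used here. Mouse build mm10 stands in the submitters' processing notes, but the IDs are human and all 10 genes had the same start and end in GENCODE release 29 (GRCh38). Rows without a gene (16014 of 222615) took 16.9% to 17.7% of the counts per library and were left out of all tests and library sizes.

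Gene sums of the counts entered the quasi-likelihood test of edgeR 4.0.16 (R 4.3.3, filterByExpr, TMM, robust glmQLFit, glmQLFTest, group as the only term), with Benjamini-Hochberg adjustment over all 17947 genes tested and a two-sided threshold of 0.05. CPM are TMM scaled, and errors are SD over 3 libraries or, for fold changes, SE. This SE is the absolute log2 fold change divided by the square root of the edgeR F statistic. TPM were computed from the counts and the full transcript length, not an effective length. Alternatives were 3 other scalings, DESeq2 1.42.0, voom in limma 3.58.1, 2 other filters, the replicate number as a block, the side on principal component 1 as a covariate, the most abundant transcript per gene, rows without a gene included, and each library left out. Promoter sequences are RefSeq's, and all 10 genes matched.

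The members and lists were chosen with earlier results of these data known. Named by rule were all 10 genes, ANXA1, the list genes past the threshold, the 3 of each list with the highest mean CPM (for the E protein targets 1 of these 3 is not reported here), the 3 genes nearest to ID3 and the 3 highest of each marker list, of which the text gives the erythroid and epithelial ones. Markers at 0 were named too. Outside this rule SMAD2, SMAD9, TGIF2, ACVR1, BMPR2, ACVRL1, ACVR2A, BAMBI, EGR1 and DDIT4 were named with their values known. Figures were drawn with matplotlib 3.10.9.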

Additional observations from a re-analysis of the deposited data

How the results depend on the processing

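Over the 17 alternatives the log2 fold change of ID3 lay between -1.90 and -1.74, and that of ID1 between -1.09 and -0.62. ID3 was picked for its fall in these same libraries, so its range is a description and not support for the fall. In none of the alternatives did any member other than ID3 pass (0 each time, in the sets without 1 library too). Signs turned for SMAD6 with the covariate of principal component 1 (-0.32), for SMAD5 with the most abundant transcript (0.18), and without siControl replicate 2 for ID2 (0.0617), TCF12 (0.0622) and SMAD6 (-0.0458), and leaving out each library gave -0.782 to 0.0617 for ID2, -0.414 to 0.0622 for TCF12 and -0.0458 to 1.46 for SMAD6. By the same step SMAD5 lay between -0.427 and -0.0380 (the last without siANXA1 replicate 1), TCF3 between 0.154 and 0.541 (without siControl replicates 2 and 3) and SMAD7 between -0.771 and -0.352. With the most abundant transcript TCF3 was at 0.0394 and SMAD7 at -1.11, and with the covariate they were at 0.155 and -0.290. SMAD6 and SMAD7 were not tested under the strict filter. These genes were not past the threshold in any setting, and the cause was not tested. Over all genes, 2 were called with group as the only term, 258 by DESeq2, 0 with the replicate block, 5 with the covariate, 1 with the most abundant transcript, 5 with rows without a gene, and 0 to 7 without 1 library (0 without siANXA1 replicate 1, 2 or 3 or siControl replicate 2, and 7 without siControl replicate 3). Of the pathway list genes 0 were called, 2 by DESeq2 (BMPR1A and MYC) and 0 to 1 without 1 library, where the 1 was MYC without siControl replicate 3 (edgeR adjusted p = 0.0487). The library left out there is the siControl library in which MYC stood at the siANXA1 level. With the covariate of principal component 1 the edgeR adjusted p of MYC was 0.445. The edgeR and voom adjusted p of BMPR1A ranged from 0.128 to 0.999. For 80 of the 82 list genes with a DESeq2 adjusted p the sign and the side of the threshold were the same, and 10 had none. The receptor list had 15 negative genes of 15 with all scalings, 14 of 15 with voom or the replicate block, 12 of 15 with the covariate and 13 or 14 of 15 without 1 library. Deviations of same-numbered libraries correlated at -0.114, 0.263 and 0.256. For siANXA1 replicates 2 and 3 the same-numbered siControl library correlated best, but siANXA1 replicate 1 correlated best with siControl replicate 3 (0.21). Correlations were positive between libraries on the same side of principal component 1 and negative across sides. They therefore cannot show whether the replicate numbers paired the samples. With the replicate block ID3 stood at -1.83 and ID1 at -0.88.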
